A study of Rattus norvegicus with 96 samples.

Results

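The mammalian clock is a transcriptional loop that most cells run with a period of about a day. CLOCK or its paralog NPAS2 pairs with BMAL1 and activates genes through E-box sequences, among them the Per and Cry genes, whose proteins return to the nucleus and repress that activation. The nuclear receptors encoded by Nr1d1 and Nr1d2 (REV-ERB alpha and beta) form a further loop that represses Bmal1, and Dbp encodes an output factor that carries the rhythm to other genes through D-box sequences. In the brain the light-entrained pacemaker is the suprachiasmatic nucleus, which was not sampled here, and NPAS2 is best known from forebrain.

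The 8 clock genes described here are Clock and Npas2 (activators), Per1, Per2 and Cry2 (repressors), Nr1d1 and Nr1d2 (the further loop) and Dbp (output). They were chosen by symbol from the 14218 genes that had an Affymetrix RN230.2 probe set annotated to them alone, and each gene was read from its probe set with the highest mean. Values are log2 GCRMA signals, in which a difference of 1 is a 2-fold difference; levels of different probe sets are not comparable, so each gene is compared only with itself. On build GRCr8, Dbp lies at chr1:105312256-105317205, Cry2 at chr3:98830479-98860437, Npas2 at chr9:48959225-49138036, Per2 at chr9:99454828-99497069, Per1 at chr10:54299002-54313804, Nr1d1 at chr10:84224599-84231812, Clock at chr14:32262747-32346872 and Nr1d2 at chr15:9955034-9981329.

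The study microdissected 8 rat brain regions: the medial prefrontal cortex (mPFC), the core (NAcC) and shell (NAcSh) of the nucleus accumbens, the central (CeA) and basolateral (BLA) amygdala, the dorsolateral (dlBNST) and ventral (vBNST) bed nucleus of the stria terminalis and the ventral tegmental area (VTA). Dependent rats had self-administered 10% alcohol for 4 weeks and were then exposed to intermittent alcohol vapor for 4 weeks, non-dependent rats had self-administered alcohol in the same way without vapor, and naive rats were age-matched and had no alcohol. After the vapor period the rats drank again in tests during acute withdrawal, and tissue was taken 3 weeks after the end of vapor. Each region and group had 4 arrays, numbered as replicates, which makes 96 arrays in all. The study used 4 rats per group for all regions, so arrays of different regions can share a rat. The methods name adult male Wistar rats for a separate mifepristone experiment with the same vapor procedure, and do not repeat strain, sex or age for the rats on the arrays. The hour of killing and the light cycle are not given in the sources used here, so the clock phase at sampling is unknown.

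Of the 96 arrays, 4 stood apart and were left out: CeA non-dependent 2, BLA non-dependent 3, VTA non-dependent 2 and vBNST dependent 1. Their highest correlation with any other array was 0.345 to 0.961, against 0.990 to 0.996 for the 92 arrays kept, and between 5 and 8 of the 8 clock genes lay outside the range of the kept arrays of the same region. The mPFC arrays also differed in control probe sets for RNA quality: the probe set for the middle of Gapdh read 12.24 ± 0.52 (SD, n = 12) in the mPFC, against region means of 6.15 to 8.03 elsewhere, and the signal of the 3' end exceeded that of the middle by 0.98 in the mPFC, against 3.21 to 3.78 elsewhere. RNA was amplified from 30 or 50 ng depending on the region. The part of this difference in the mPFC results was not tested. Markers followed the labels of the VTA, NAcC, NAcSh, mPFC and BLA, and those of the CeA and BNST only in part. The 5 dopamine neuron markers (Th, Slc6a3, Ddc, Slc18a2, Nr4a2) averaged 8.99 in naive VTA, against 3.32 to 4.08 in the other regions. The 4 medium spiny neuron markers measured averaged 9.78 in the NAcC and 8.42 in the NAcSh, against 3.55 to 5.71 elsewhere. Of the 4 CeA and BNST markers, Crh was highest in the dlBNST (8.24), CeA (7.98) and vBNST (7.04), as was Tac3 in these regions. Sst was highest in the mPFC (8.8), and Prkcd was nearly even (4.4 to 5.16). Slc17a7, the vesicular glutamate transporter of cortical neurons, averaged 11.75 in the mPFC and 7.22 in the BLA, against 3.25 to 4.18 in the rest. It varied between naive NAcSh arrays (SD 1.86), as did the cortical marker Neurod6 (SD 2.96). The cause was not tested. Over 4 cortical neuron markers the NAcSh arrays ranged from 2.95 to 4.73 in dependent rats and from 2.91 to 5.64 in naive rats; of these markers Tbr1 was near the floor in every region, the mPFC included.

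Of the 8 genes, 6 passed the filter on dim genes (mean log2 signal above 4 over the arrays of a fit). Per1 (mean 3.62 over 92 arrays) and Nr1d1 (3.42) did not, and were tested only within the mPFC, where their means were 4.79 and 4.26. Near the floor of the array a difference is compressed, which holds for the differences of these genes wherever they are plotted.

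The upstream sequences of the 4 genes on which the results turn are shown first, since the clock acts on its own genes through short motifs close to the start of transcription. Each is the RefSeq window (build GRCr8) from 250 bases before to 50 bases after an annotated transcript start, 5' to 3' on the strand of the gene, with letters in capitals where a searched motif was found. Dbp (chr1:105312006-105312305, plus strand) and Npas2 (chr9:48959315-48959614, plus strand) held none of the motifs. The Npas2 window lies wholly inside the gene, after its first base, so the sequence before the gene was not searched. Per2 (chr9:99496944-99497243, minus strand) held a D-box and an E-box variant. Nr1d2 (chr15:9954784-9955083, plus strand) held the core of the element that ROR and REV-ERB receptors read.
Dbp: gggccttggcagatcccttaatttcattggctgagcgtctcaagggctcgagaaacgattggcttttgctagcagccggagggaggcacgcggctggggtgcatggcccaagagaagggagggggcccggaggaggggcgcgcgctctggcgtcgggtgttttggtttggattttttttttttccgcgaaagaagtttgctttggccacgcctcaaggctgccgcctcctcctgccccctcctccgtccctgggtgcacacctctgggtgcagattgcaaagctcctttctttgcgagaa
Npas2: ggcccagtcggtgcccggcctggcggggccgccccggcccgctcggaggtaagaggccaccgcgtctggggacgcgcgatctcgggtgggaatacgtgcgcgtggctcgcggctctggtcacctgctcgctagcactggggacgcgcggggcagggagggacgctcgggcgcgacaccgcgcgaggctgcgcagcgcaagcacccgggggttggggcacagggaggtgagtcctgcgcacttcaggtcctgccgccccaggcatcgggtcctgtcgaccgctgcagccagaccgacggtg
Per2: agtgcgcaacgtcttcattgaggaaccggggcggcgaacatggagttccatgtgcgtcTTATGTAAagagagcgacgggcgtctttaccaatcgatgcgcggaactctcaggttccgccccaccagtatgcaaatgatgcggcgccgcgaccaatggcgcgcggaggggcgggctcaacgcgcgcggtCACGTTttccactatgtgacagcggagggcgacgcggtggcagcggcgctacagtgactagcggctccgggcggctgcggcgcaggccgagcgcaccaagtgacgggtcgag
Nr1d2: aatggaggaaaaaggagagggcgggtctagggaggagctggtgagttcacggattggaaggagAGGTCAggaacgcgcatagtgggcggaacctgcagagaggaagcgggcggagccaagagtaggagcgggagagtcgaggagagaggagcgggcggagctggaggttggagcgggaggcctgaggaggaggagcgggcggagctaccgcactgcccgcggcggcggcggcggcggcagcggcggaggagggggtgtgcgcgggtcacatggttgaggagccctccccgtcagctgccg

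The motifs were searched on both strands of the 10 windows of the 8 genes (Clock and Nr1d1 have 2 annotated starts) and of all 33469 windows. The D-box TTATGTAA, which DBP and its relatives read, stood in the Per2 window, with its first base at -192 from the start, and in 0.893% of all windows; the D-box form TTACGTAA was in none of the 10. The E-box CACGTG, read by CLOCK and NPAS2 with BMAL1, stood in the second Nr1d1 window at -191 and in 6.42% of all windows. The E-box variant CACGTT, added to the search after the windows had been seen, stood in the Per2 window at -62, the Cry2 window at -212 and the first Nr1d1 window at -174, and in 4.83% of all windows. The ROR and REV-ERB core AGGTCA stood in the Nr1d2 window at -187 and in 16.2% of all windows, and its longer form TAGGTCA in none of the 10. No window of the 10 held the cAMP element TGACGTCA (1.83% of all windows) or the palindromic glucocorticoid response element (0.0508%). The only Per1 window (chr10:54304126-54304425, plus strand) lies inside the gene, as does the only Npas2 window. For these genes the sequence before the first base of the gene was not searched, so the absence of motifs does not describe it. A match is a run of letters and not a measured site, and known E-boxes of clock genes can lie outside such windows.

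The regional pattern of the clock genes was compared in naive rats, to ask where each gene is expressed before any alcohol. Dbp signal was high in the mPFC and low in the other 7 regions, Npas2 signal was high from the mPFC to the BLA and low in the vBNST and VTA, Per2 and Cry2 were highest in the mPFC, Clock was lowest there, and Nr1d2 was nearly even. Of the 48 tests of the 6 genes (each region against the mean of the other 7, limma, adjusted over 8792 genes), 26 passed. Regions differ in most genes: over all genes tested 51.3% of these contrasts passed, so the number of clock genes that passed is near the background and only the sizes are described. Of the 6 clock genes, 4 were higher and 1 lower in the mPFC (80.8% of all genes passed there), 2 higher in the NAcC (53.0%), 2 higher and 2 lower in the NAcSh (52.6%), 2 higher in the CeA (44.5%), 1 higher and 1 lower in the BLA (35.6%), 2 lower in the dlBNST (32.2%), 5 lower in the vBNST (48.1%) and 4 lower in the VTA (64%).

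**Figure D1:**
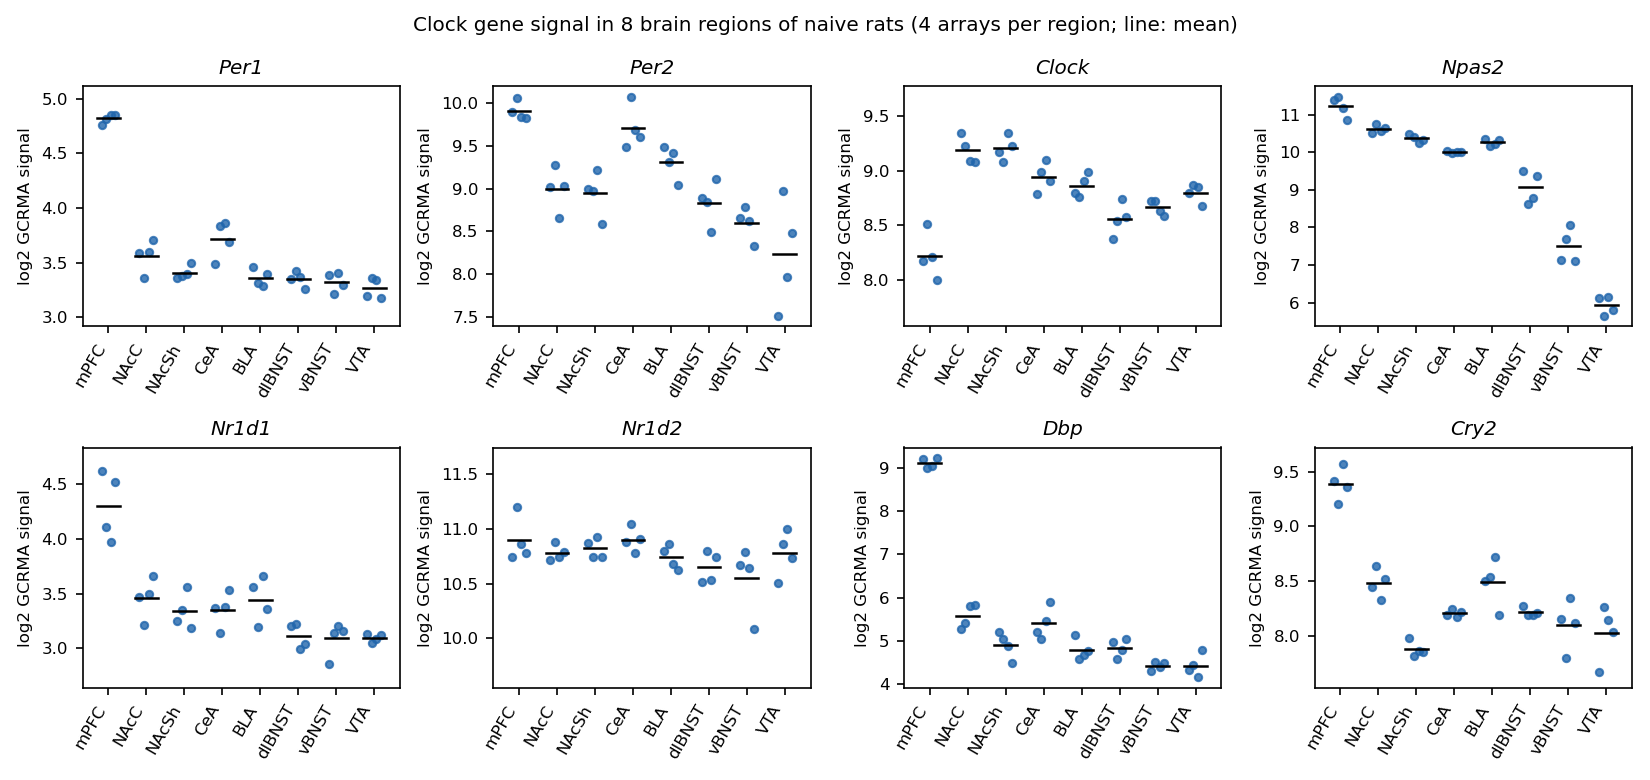
Log2 GCRMA signal of the 8 clock genes in 8 brain regions of naive rats; each panel is 1 gene on its own vertical scale, points are the 4 arrays of a region and lines their mean. Dbp stands at 8.99 to 9.21 in the mPFC and below 6 elsewhere, Npas2 falls to 5.65 to 6.16 in the VTA, and Nr1d2 region means lie between 10.55 and 10.90.

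Dbp, the PAR bZIP output factor, read 9.21, 8.99, 9.04 and 9.21 in the 4 naive mPFC arrays. In the other 7 regions its region means were 4.43 to 5.58, and the highest single array there (CeA) read 5.90, so the mPFC did not overlap any other region. The mPFC exceeded the mean of the other regions by 4.20 ± 0.13 (SE), an 18.3-fold difference in signal (adjusted p = 4.98e-22), which ranked 107 of 8792 genes by size. Naive Dbp averaged 4.43 in the vBNST and VTA, close to the dim range in which differences are compressed, so this fold may understate the difference. The Gapdh middle control was also higher in the mPFC arrays (12.24, against 6.15 to 8.03 elsewhere). Its part in this fold was not tested, so the size of the fold is uncertain in both directions. Among the other regions the NAcC (5.58) and CeA (5.41) did not differ (adjusted p = 0.439), the CeA exceeded the NAcSh by 0.50 (adjusted p = 0.0243), and no neighbouring pair in the order NAcSh, dlBNST, BLA, VTA and vBNST differed (adjusted p = 0.0773 to 0.983). In the NAcC the contrast of Dbp was 0.16 in naive rats (adjusted p = 0.305) and -0.46 in dependent rats (adjusted p = 0.0174). The mPFC contrast of Dbp was 4.06 ± 0.16 in dependent rats and 4.27 ± 0.19 in non-dependent rats.

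Npas2, the paralog of Clock, read 6.13, 5.65, 6.16 and 5.81 in the naive VTA arrays and 11.40, 11.47, 11.18 and 10.87 in the naive mPFC arrays, a span of 5.29 between the means, or 39.2-fold. The VTA contrast was -3.93 ± 0.14 (adjusted p = 8.10e-20, rank 41 of 8792 by size). The vBNST contrast was -2.15 ± 0.14 (adjusted p = 5.64e-13, rank 59). The order was mPFC 11.23, NAcC 10.62, NAcSh 10.37, BLA 10.27, CeA 10.01, dlBNST 9.07, vBNST 7.50 and VTA 5.94. Neighbours from NAcC to CeA did not differ (adjusted p = 0.274 to 0.734), whereas every later step, CeA to dlBNST, dlBNST to vBNST and vBNST to VTA, passed (adjusted p = 0.000312, 4.81e-07 and 4.93e-08). The dorsolateral and ventral parts of the BNST thus differed by 1.57 in this gene. Without the mPFC arrays, the contrast was -3.70 ± 0.14 in the VTA and -1.88 ± 0.14 in the vBNST. These are tissue levels, in which fewer cells of a type and less RNA per cell cannot be told apart: markers of all neurons averaged 9.90 in the VTA and 10.28 in the vBNST, against 10.25 to 11.61 in the other regions, and oligodendrocyte markers 11.22 in the VTA, against 8.70 to 9.95 elsewhere. The neuron markers disagreed. In naive VTA, Rbfox3 read 10.49, against 11.66 to 12.72 elsewhere, but Snap25 read 13.48, against 13.26 to 13.78 elsewhere. Eno2 (11.60) and Syt1 (4.03) in the VTA lay close to the next lowest region (11.61 in the CeA and 4.07 in the vBNST). The part of the neuron and oligodendrocyte markers in the Npas2 pattern was not tested.

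**Figure D2:**
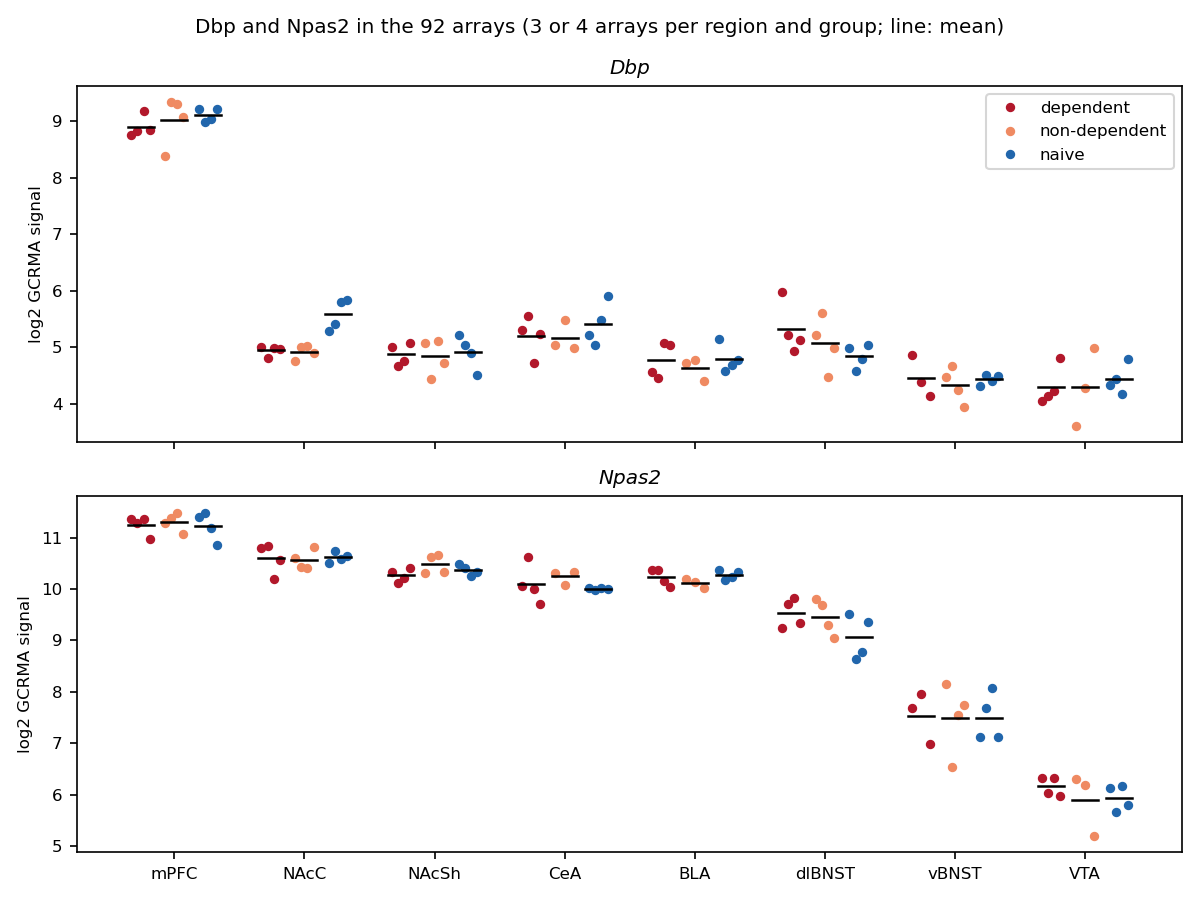
Log2 GCRMA signal of Dbp (top) and Npas2 (bottom) by brain region in dependent, non-dependent and naive rats (left to right within a region); points are the 92 single arrays, 3 or 4 per region and group, and lines their mean. In all 3 groups Dbp is high in the mPFC (8.38 to 9.33) and Npas2 low in the VTA (5.19 to 6.33), and in the NAcC the naive Dbp points lie above both alcohol groups.

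Among the repressors, Per2 read highest in the mPFC (9.90) and CeA (9.71) and lowest in the VTA (8.24), a 3.17-fold span. Its mPFC contrast was 0.95 ± 0.16 (adjusted p = 2.42e-06), its CeA contrast 0.73 ± 0.16 (adjusted p = 0.000367), its vBNST contrast -0.54 (adjusted p = 0.00555) and its VTA contrast -0.95 ± 0.16 (adjusted p = 5.49e-06). No pair of neighbours in the order of its 8 regions differed (adjusted p = 0.145 to 0.905). The 4 naive VTA arrays spread from 7.52 to 8.97, wider than in other regions. Cry2 read 9.39 in the mPFC, 0.90 above the next region (BLA, adjusted p = 1.42e-07), and 7.88 in the NAcSh; no other neighbours differed (adjusted p = 0.0716 to 0.978). The NAcSh contrast of Cry2 (-0.54 ± 0.09, adjusted p = 1.82e-05) passed in naive rats and in neither alcohol group (-0.15, adjusted p = 0.361, in dependent rats and -0.23, adjusted p = 0.173, in non-dependent rats). Per1, an early light- and stimulus-responsive gene, was dim: its naive mean was 4.82 in the mPFC, 3.72 in the CeA and 3.27 to 3.57 in the other 6 regions.

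Clock, unlike its paralog, was lowest in the mPFC (8.17, 8.51, 8.21 and 8.00 in naive arrays; contrast -0.67 ± 0.08, adjusted p = 4.97e-09) and highest in the NAcSh (9.21) and NAcC (9.18), which did not differ from each other (adjusted p = 0.925). The NAcC and NAcSh contrasts of Clock were 0.43 and 0.46 (adjusted p = 2.46e-05 and 1.60e-05). A second bright probe set of Clock was also lowest in the mPFC (-2.04 from the mean of the other regions) and highest in the NAcC. Clock levels did not follow those of Npas2 in the VTA, where the contrast of Clock was -0.01 ± 0.08 (adjusted p = 0.929). Nr1d2 (REV-ERB beta) had region means between 10.55 in the vBNST and 10.90 in the CeA, a 1.28-fold span, and of its 8 naive contrasts only that of the vBNST passed (-0.25 ± 0.10, adjusted p = 0.0335); it did not in dependent (adjusted p = 0.318) or non-dependent rats (adjusted p = 0.531), nor without naive replicate 3 (adjusted p = 0.0646) or naive replicate 4 (adjusted p = 0.434). The vBNST call of Nr1d2 was also lost with median scaling (adjusted p = 0.061), the mean of probe sets (adjusted p = 0.0671) or array weights (adjusted p = 0.0751). A second bright probe set of Nr1d2 gave another order, highest in naive mPFC (10.35, 0.39 above the mean of the other regions) and lowest in the NAcC (9.82). In non-dependent rats the mPFC contrast of Nr1d2 passed (0.57 ± 0.16, adjusted p = 0.00194). Nr1d1 (REV-ERB alpha) was dim, with naive means of 4.30 in the mPFC and 3.09 to 3.46 elsewhere.

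Part of the naive contrasts recurred in the alcohol groups. For Npas2, the mPFC, NAcC, NAcSh, CeA, BLA, vBNST and VTA contrasts passed with the same sign in all 3 groups; for Dbp the mPFC, NAcSh, BLA, vBNST and VTA contrasts did; for Per2 the mPFC, CeA, vBNST and VTA; for Cry2 the mPFC and VTA; for Clock the mPFC and NAcC. Of 48 tests, 23 passed in dependent rats and 22 in non-dependent rats, beside 43.8% and 48.9% of the contrasts of all genes. The dlBNST contrast of Dbp (-0.67 in naive rats) did not recur (-0.04, adjusted p = 0.897, in dependent rats and -0.24, adjusted p = 0.347, in non-dependent rats), and the NAcSh contrast of Clock did not in dependent rats (0.20, adjusted p = 0.0845). The NAcSh, BLA and dlBNST contrasts of Dbp were lost without the mPFC arrays, at -0.005, -0.14 and -0.08 (adjusted p = 0.980, 0.454 and 0.709), and those of the vBNST and VTA were -0.57 and -0.56. The NAcC and CeA contrasts of Dbp were 0.78 and 0.57 without the mPFC arrays. Leaving out 1 naive replicate ended 5 called contrasts: besides Nr1d2 in the vBNST, Per2 in the vBNST without replicate 4 (-0.46, adjusted p = 0.0519), Clock in the dlBNST without replicate 1 (-0.22, adjusted p = 0.0889) or with the mean of probe sets (-0.05, adjusted p = 0.471) and Cry2 in the vBNST without replicate 2 (-0.17, adjusted p = 0.177). The VTA contrast of Cry2 was lost without naive replicate 1 (-0.23, adjusted p = 0.0689) or without the mPFC arrays (-0.20, adjusted p = 0.0648).

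A list of 25 further clock genes had 20 with a probe set of their own, and 15 of these passed the filter. In the mPFC of naive rats 7 of the 15 were higher and 6 lower than the mean of the other regions, beside 37.8% of all genes higher and 43.0% lower. Usp2 (a deubiquitinase with rhythmic expression) was higher by 3.71 ± 0.17, Bhlhe40 (DEC1, an E-box repressor) by 3.56 ± 0.18, Tef (a PAR bZIP factor related to Dbp) by 2.96 ± 0.14 and Csnk1e (a kinase of PER proteins) by 2.45 ± 0.07. Hlf, the other PAR bZIP factor, was higher by 0.85 ± 0.17 and stood higher in the NAcC (1.52). Bhlhe40, counted among the 7, averaged 4.05 over the kept arrays. It passed the filter on dim genes through its mPFC arrays and was dim elsewhere, where differences are compressed. Cry1, paralog of Cry2, was lower in the mPFC (-1.62 ± 0.15) and higher in the CeA (1.23), and Rorb was lower in the mPFC (-2.07 ± 0.37). In the VTA, 9 of the 15 were lower, among them Usp2 (-2.20), Hlf (-1.58) and Tef (-1.56), and 2 were higher, beside 30.7% and 33.3% of all genes.

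**Figure D3:**
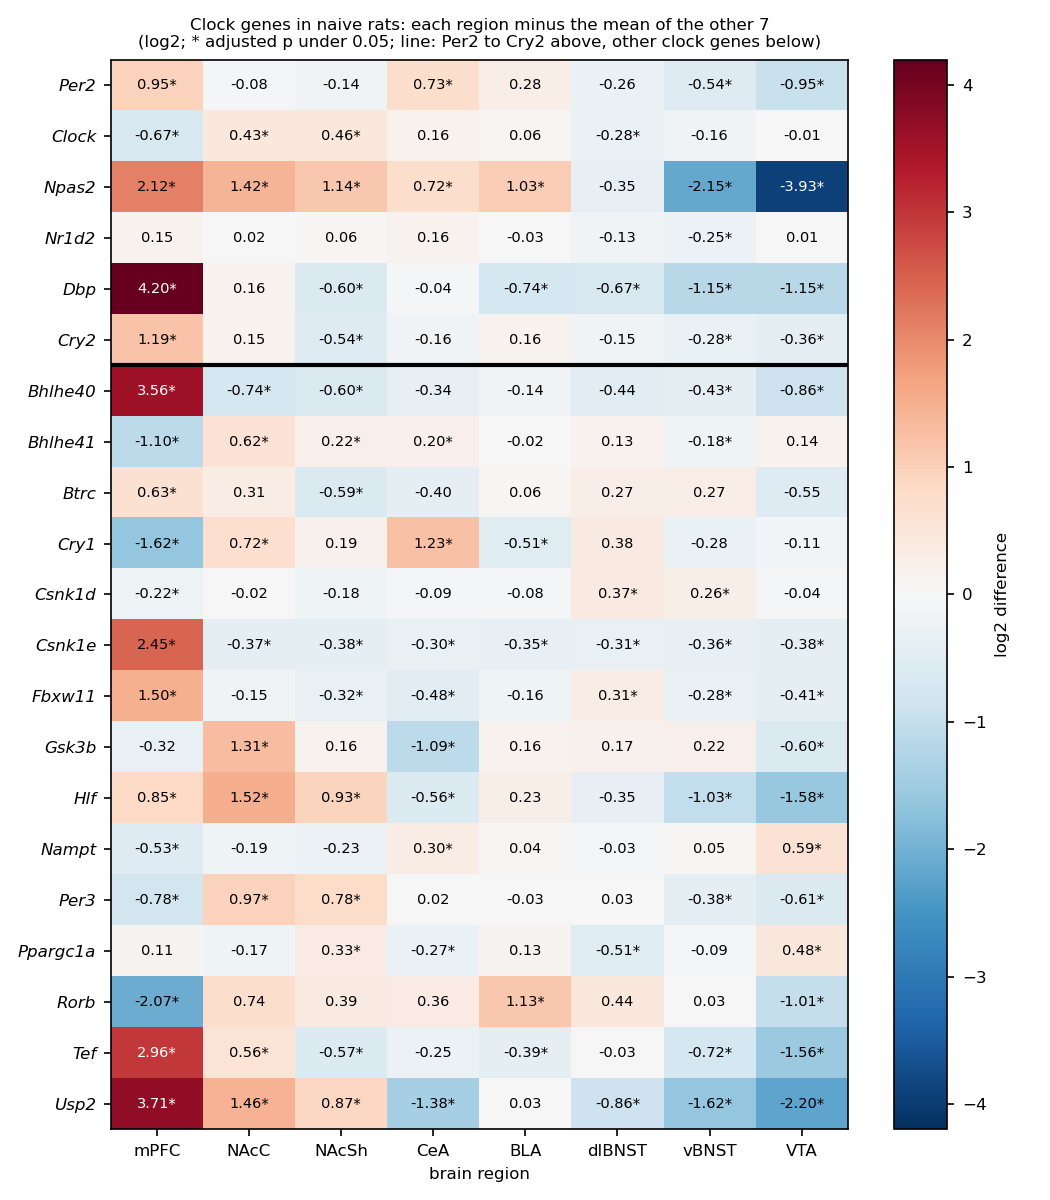
Log2 difference between each brain region (columns) and the mean of the other 7 in naive rats, for the 6 tested clock genes (above the line) and 15 further clock genes (below it); red is higher, blue lower, and an asterisk marks an adjusted p under 0.05. Dbp (4.20), Usp2 (3.71), Bhlhe40 (3.56) and Tef (2.96) are high in the mPFC, and Npas2 is low in the VTA (-3.93) and vBNST (-2.15). Bhlhe40 passed the filter on dim genes through its mPFC arrays.

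The group comparisons asked whether a history of drinking, with or without dependence, left the clock genes changed 3 weeks later. Within single regions no clock gene passed in any region. The 50 tests of each comparison gave 0 calls for dependent vs naive, non-dependent vs naive and dependent vs non-dependent rats (limma, adjusted p), and 3, 4 and 2 at an unadjusted p under 0.05. The background was as low: over all genes 0.0202%, 0.0101% and 0.0% of the tests passed after adjustment, with calls only in the mPFC (0.0556% for dependent vs naive and 0.0779% for non-dependent vs naive rats) and the dlBNST (0.103% for dependent vs naive rats), and 11.3%, 7.84% and 7.17% had an unadjusted p under 0.05. The median difference over the 50 tests was -0.03, -0.05 and 0.02.

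The smallest unadjusted p was for Dbp in the NAcC. Dbp read 5.0014, 4.8026, 4.9920 and 4.9701 in dependent rats and 4.7588, 5.0005, 5.0243 and 4.8917 in non-dependent rats, against 5.2853, 5.4064, 5.7985 and 5.8291 in naive rats. Both alcohol groups lay wholly below the naive group and overlapped each other. The differences were -0.64 ± 0.14 for dependent vs naive rats (adjusted p = 0.364) and -0.66 ± 0.14 for non-dependent vs naive rats (adjusted p = 0.467) by limma, both against the same 4 naive arrays, so neither passed. In this region groups did not overlap for 4.12% of 8445 genes for dependent vs naive rats and 5.41% for non-dependent vs naive rats. The Gapdh middle control also averaged lower in the alcohol groups there (6.97 and 6.98, against 7.57 in naive rats), and over the 92 arrays, after subtracting the mean of each region and group, Dbp correlated with it at r = 0.30; its part in the difference was not tested. The 4 medium spiny neuron markers averaged 9.58 and 9.80 in the dependent and non-dependent NAcC, against 9.78 in naive NAcC. In the other 7 regions the Dbp difference between dependent and naive rats ran from -0.22 in the mPFC to 0.46 in the dlBNST.

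Nr1d2 was the other gene with repeated small differences. In the BLA it read 10.63, 10.56, 10.38 and 10.32 in dependent rats and 10.13, 10.61 and 10.14 in non-dependent rats, against 10.80, 10.86, 10.68 and 10.63 in naive rats, and neither alcohol group overlapped the naive group. The gap was very small for dependent rats, whose highest array (10.6270) lay just below the lowest naive array (10.6298). The BLA differences were -0.27 ± 0.13 (adjusted p = 0.828) and -0.45 ± 0.14 (adjusted p = 0.785). Non-dependent rats also read lower than naive rats in the dlBNST (-0.43, adjusted p = 0.724) and VTA (-0.36, adjusted p = 0.713), and in the dlBNST dependent rats read 0.45 above non-dependent rats (adjusted p = 0.693). With 1 replicate left out these ran from -0.58 to -0.28, from -0.45 to -0.23 and from 0.29 to 0.59. The Gapdh middle control in the VTA averaged 8.28 in non-dependent and 7.44 in naive rats, and its part was not tested. Groups without overlap made up 3.34% and 6.17% of genes in the BLA for these comparisons with naive rats.

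Among the other genes, Clock in the NAcSh read 9.005, 9.106, 8.805 and 9.161 in dependent rats, against 9.583, 9.189, 9.396 and 9.280 in non-dependent rats, without overlap (-0.34 ± 0.12, adjusted p = 0.558), beside 5.35% of genes without overlap there. Per2 in the CeA averaged 10.03 ± 0.21 in dependent rats and 9.71 ± 0.25 in naive rats (SD, n = 4 each; adjusted p = 0.680). Cry2 in the vBNST read 7.78, 7.73 and 7.78 in dependent rats, against 8.15, 7.79, 8.34 and 8.12 in naive rats (-0.34 ± 0.15, adjusted p = 0.320), and 13.1% of genes did not overlap in that comparison, in which the dependent group had 3 arrays. Per2 in the VTA averaged 8.20 ± 0.31 in dependent rats (n = 4) and 7.62 ± 0.37 in non-dependent rats (n = 3), without overlap and with an adjusted p of 0.392, beside 14.9% of genes without overlap. The Gapdh middle control there averaged 7.06 in dependent and 8.28 in non-dependent rats, and its part was not tested; with limma's array weights this test passed (0.92, adjusted p = 0.0374). Npas2 in the CeA averaged 10.24 ± 0.14 in non-dependent rats (n = 3) and 10.01 ± 0.01 in naive rats (n = 4), without overlap (0.24, adjusted p = 0.831), beside 7.78% of genes without overlap. For Per1 and Nr1d1 the smallest adjusted p in the mPFC, where they were tested, was 0.548.

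**Figure D4:**
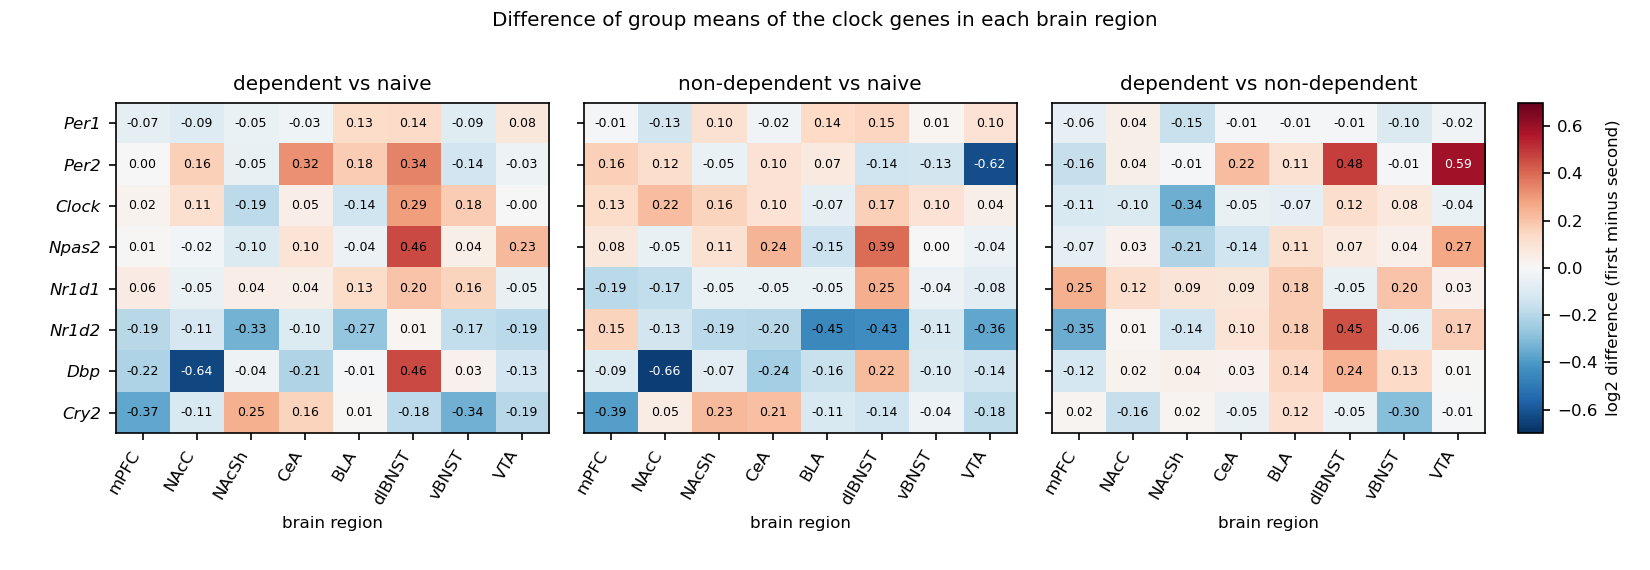
Difference of group means of log2 GCRMA signal for the 8 clock genes (rows) in 8 brain regions (columns), for dependent vs naive, non-dependent vs naive and dependent vs non-dependent rats (first minus second; red higher, blue lower). Dbp in the NAcC is at -0.64 and -0.66 against naive rats and at 0.02 between the alcohol groups, and Nr1d2 is below 0 in 7 of 8 regions in both comparisons with naive rats.

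Over all 8 regions in 1 fit, again none of the 6 genes passed in any of the 3 comparisons. Over all genes, 13.5% of 8762 genes passed for dependent vs naive rats, 2.84% for non-dependent vs naive rats and 0.833% for dependent vs non-dependent rats. At an unadjusted p under 0.05, the clock genes numbered 1, 3 and 0 of 6, beside 29.1%, 18.5% and 13.5% of all genes.

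Nr1d2 came nearest. Its difference was -0.17 ± 0.06 (SE) for dependent vs naive rats (95% interval -0.30 to -0.04, adjusted p = 0.0687) and -0.21 ± 0.07 for non-dependent vs naive rats (-0.34 to -0.07, adjusted p = 0.0654); both share the naive arrays. The difference of means was below 0 in 7 of 8 regions in each comparison, with the dlBNST (0.01) and the mPFC (0.15) as the exceptions. The control for the 3' end of Actb moved too: its region means were higher in dependent and non-dependent than in naive rats in the 7 regions other than the mPFC (BLA 10.63 and 10.60, against 10.16; VTA 11.14 and 11.09, against 10.27), and in the mPFC read 11.77 and 11.65, against 11.73. Within region and group, Nr1d2 correlated with it at r = -0.13 and with the Gapdh 5' end at r = -0.28 over the 92 arrays, and their part in the difference was not tested. Dependent and non-dependent rats differed by 0.04 (-0.10 to 0.17). The intervals and p-values of this fit, here and below, rest on 82 residual degrees of freedom over arrays. Which arrays share a rat is not given, so they measure the spread between arrays and not between rats. With arrays averaged over regions by group and number, no clock gene passed in either comparison with naive rats. The second bright probe set of Nr1d2 gave mean differences of -0.13 and -0.15. Nr1d2 passed for non-dependent vs naive rats without dependent replicate 3 (-0.21, adjusted p = 0.0444), without non-dependent replicate 4 (-0.24, adjusted p = 0.0498) and without the mPFC arrays (-0.26, adjusted p = 0.0246).

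Among the activators, the Clock difference was 0.11 ± 0.04 for non-dependent vs naive rats (0.02 to 0.20, adjusted p = 0.146) and Npas2 differed by 0.08 in both comparisons with naive rats (adjusted p = 0.458 in dependent and 0.600 in non-dependent rats). The second bright probe set of Clock disagreed, with a mean difference over regions of -0.21 for non-dependent vs naive rats. With 1 replicate left out, Npas2 ran from 0.0394 to 0.159 for dependent vs naive and from 0.0109 to 0.13 for non-dependent vs naive rats. For Npas2 the 95% interval of dependent vs naive rats was -0.06 to 0.22. Among the repressors the Per2 difference was 0.15 ± 0.08 for dependent vs non-dependent rats (-0.003 to 0.31, adjusted p = 0.388) and that of Cry2 -0.09 ± 0.06 for dependent vs naive rats (-0.20 to 0.02, adjusted p = 0.282). The Dbp difference was -0.16 ± 0.08 for non-dependent vs naive rats (-0.31 to -0.001, adjusted p = 0.265), with the NAcC (-0.66) the lowest region and the dlBNST (0.22) the only one above 0.

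**Figure D5:**
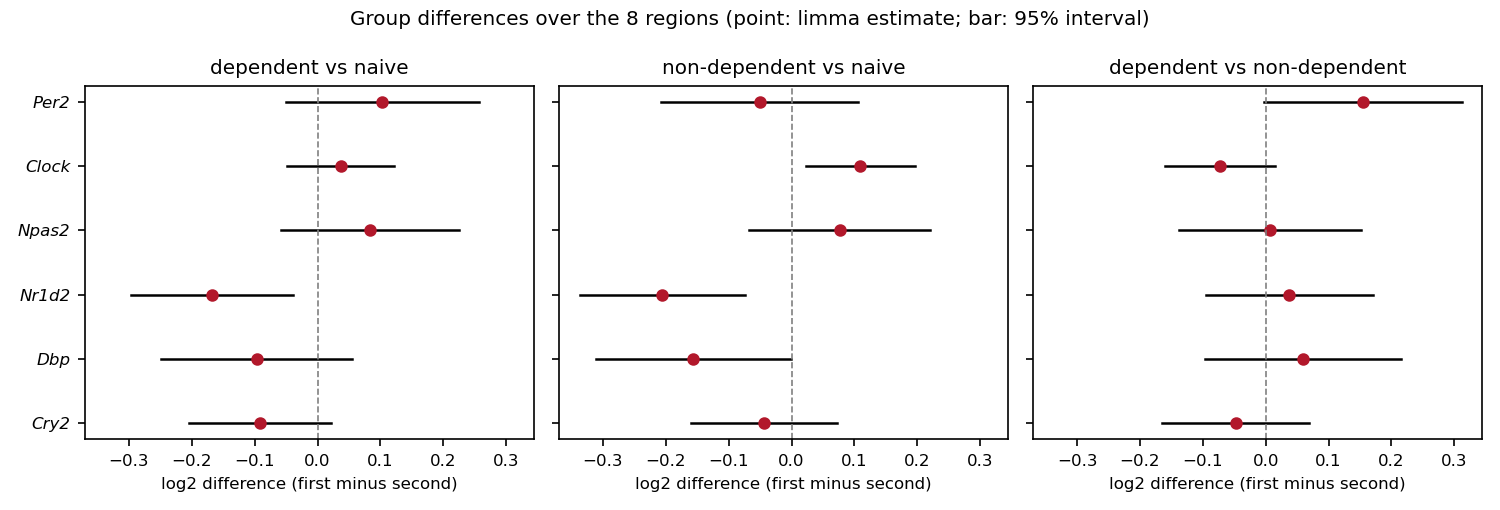
Log2 difference between groups over the 8 regions for the 6 tested clock genes (rows), for dependent vs naive, non-dependent vs naive and dependent vs non-dependent rats (panels, first minus second); points are limma estimates and bars 95% intervals. The intervals rest on the spread between arrays and not between rats. Nr1d2 lies at -0.17 and -0.21 against naive rats, and no estimate passed after adjustment over all genes.

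Whether group differences varied between regions was tested next. The region by group interaction passed for 0 of the 6 clock genes (adjusted p = 0.558 to 0.946), beside 2.31% of 8762 genes. Of the 15 further clock genes, Csnk1e passed (adjusted p = 0.0392), and Bhlhe40, which passed the filter through its mPFC arrays, had an adjusted p of 0.0655.

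Among the 15 further clock genes, 3 passed over all regions for dependent vs naive rats, 2 of them higher and 1 lower, beside 4.06% of all genes higher and 9.44% lower. In the same comparison 2 of 5 oligodendrocyte markers (list median -0.19) and 1 of 4 microglia markers tested (list median -0.15) were lower, and none of the 4 markers of all neurons or 5 of astrocytes passed; their part in the clock genes was not tested. Rorb (a retinoid-related orphan receptor) was higher by 0.41 ± 0.13 (adjusted p = 0.0309), Gsk3b (a kinase that acts on several clock proteins) was higher by 0.27 ± 0.09 (adjusted p = 0.0244) and Fbxw11 (part of a ubiquitin ligase for PER proteins) was lower (-0.21 ± 0.07, adjusted p = 0.0309). Rorb also passed for dependent vs non-dependent rats (0.62 ± 0.14, adjusted p = 0.00899). With arrays averaged over regions to 4 values per group all these calls were lost (adjusted p = 0.0531 for Rorb, 0.0595 for Gsk3b and 0.0991 for Fbxw11 in dependent vs naive rats, and 0.0603 for Rorb in dependent vs non-dependent rats). Leaving out non-dependent replicate 1 (adjusted p = 0.174) or 4 (adjusted p = 0.0582) also ended the Rorb call against non-dependent rats. The calls against naive rats were each lost without at least 3 single replicates: Rorb without dependent 1, 2 or 4 or naive 2 or 4, Gsk3b without dependent 4 or naive 1 or 2, and Fbxw11 without dependent 1, 2 or 4 or naive 2, 3 or 4 (adjusted p = 0.0559 to 0.118). Without the mPFC arrays Gsk3b (adjusted p = 0.0723) and Fbxw11 (adjusted p = 0.186) were lost. In the dlBNST, Rorb averaged 7.91 ± 0.30 in dependent rats and 6.68 ± 0.45 in non-dependent rats (SD, n = 4 each), and in the mPFC 5.33 in dependent and 5.41 in non-dependent rats. Within single regions, however, no further clock gene passed in any comparison, and the region by group interaction of Rorb did not pass (limma F-test, adjusted p = 0.958). No further clock gene passed for non-dependent vs naive rats, and the PAR bZIP factors related to Dbp did not pass for dependent vs naive rats (Tef -0.21, adjusted p = 0.0515; Hlf 0.01, adjusted p = 0.960). Genes induced by glucocorticoids, which also reset peripheral clocks, gave 0 calls of 7 tested (8 listed) in each comparison over all regions, and of 7 immediate early genes tested (12 listed, 10 measured) 2 rose in dependent vs naive rats (Egr1 by 0.33 and Egr2 by 0.98, adjusted p = 0.00681 and 0.00165).

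How the clock genes varied together was described over the 92 arrays after subtracting the mean of each region and group, so that neither contributes. The arrays share amplification and scanning, and these correlations are descriptions. Of the 28 pairs, Per2 with Nr1d2 had the highest r (0.47), then Dbp with Cry2 (0.39), and the lowest were Clock with Dbp (-0.41) and Nr1d1 with Nr1d2 (-0.38). Nr1d1 lay near the floor outside the mPFC. Per2 and Nr1d2 correlated with the Gapdh 5' end at -0.26 and -0.28, and Nr1d1 at 0.22. Dbp and Cry2 correlated with the Gapdh 3' end at 0.30 and 0.31. The part of these controls in the pairs was not tested. Dbp and Nr1d2, both E-box targets of the loop, were at 0.07, and Clock and Npas2 at 0.24. The genes most like Dbp among 8762 were LOC100911992 (0.68), Rnasek (0.67), Mif (0.66), Eef2 (0.65) and Snrpd2 (0.63), and those most like Nr1d2 were Zfand5 (0.73), Atl2 (0.72), Fnip1 (0.70), Ssr3 (0.68) and Rabggtb (0.68). Zfp770 (0.62) led for Clock, Spry2 (0.60) for Npas2, Slc27a1 (0.60) for Cry2 and Pik3c2a (0.55) for Per2. None of the 6 tested clock genes was among the 5 genes most like another of them; Per1 and Nr1d1 were not searched.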

How the data were processed

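Rat brain RNA from 8 regions and 3 groups was measured on Affymetrix RN230.2 arrays. The authors deposited log2 signals computed with GCRMA 2.36.0 under R 3.03, per the labels; the probe remapping by Cleaner that the study used for its network is not in them. The 31099 probe sets were assigned with the platform annotation (20832 to 1 gene, 436 to several, 9831 to none). Fits used limma 3.58.1 in R 4.3.3 on 92 arrays, with Benjamini-Hochberg adjustment over all genes with a mean above 4 and a threshold of 0.05: within each region (3 groups), over all regions (region as a term and arrays of the same group and number as a random block, whose correlation was -0.01), region by group interaction, and regions of naive rats. Scripts were tested on simulated data. Tables and figures used Python 3.11.15, pandas 2.3.3 and matplotlib 3.10.9.

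The number of arrays limits precision. The sources do not say which arrays of different regions share a rat. Deviations of same-numbered arrays of a region did not correlate (median r 0.01), so numbers did not pair the groups. The genes named are the 8 clock genes, further clock genes that passed a test or led a list, and the 5 genes most like each; these genes and lists were chosen with earlier results of these data known. The alternatives were all 96 arrays, other filters, scalings, probe sets, weights and blocks, the methods' t-test, and leaving out arrays.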

Additional observations from a re-analysis of the deposited data

Results flagged for a closer look

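In 4 of the 160 sets of 4 arrays examined (1 gene, region and group each), 1 array lay far from the other 3; chance marks about 1 in 20 such sets. In dependent NAcSh, Per1 read 3.243 in replicate 3, against 3.392 to 3.414 in the others, all near the floor of the array. In dependent NAcC, Nr1d2 read 10.18 in replicate 4, against 10.8 to 10.87, and Dbp read 4.803 in replicate 2, against 4.97 to 5.001. In dependent mPFC, Cry2 read 9.722 in replicate 3, against 8.755 to 8.835.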

How the results depend on the processing

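The count of naive region contrasts was 21 to 36 over the alternatives, against 26 of 48 tests, and 25 whenever 1 naive replicate was left out. The number of tests differs between alternatives. The 36 were of 64 tests without the filter on dim genes, which brought in Per1 and Nr1d1, and without the mPFC arrays 22 of 42 passed. Counts of clock genes called within regions for dependent vs naive and non-dependent vs naive rats, and across regions for dependent vs non-dependent rats, were 0 in every alternative run. With array weights, 1 passed within regions for dependent vs non-dependent rats (Per2 in the VTA), 2 across regions for non-dependent vs naive rats (Clock 0.13, Nr1d2 -0.22) and 1 for the interaction (Per2). The mean of probe sets gave 1 across regions for dependent vs naive rats (Nr1d2, -0.13), and leaving out the mPFC arrays, an alternative chosen after seeing the data, gave 1 for non-dependent vs naive rats. Leaving out 1 replicate gave 0 to 1 there. The shares of all genes given above belong to the main fit. These counts therefore have no background beside them and are not read as a result about the clock genes.

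Signs turned in these cases, none of which passed. With all 96 arrays, Clock was -0.0345 for dependent vs naive, -0.14 for non-dependent vs naive and 0.11 for dependent vs non-dependent rats, Npas2 -0.15 for non-dependent vs naive and Cry2 0.125 for dependent vs non-dependent rats. With the mean of probe sets, Clock was -0.00623 for non-dependent vs naive and 0.00727 for dependent vs non-dependent rats, and Cry2 0.00343 for the last. Cry2 was 0.00731 for non-dependent vs naive rats without the mPFC arrays. The dlBNST contrast of Clock, called in naive rats, was 0.00675 in dependent rats, a setting also chosen after seeing the data. Npas2 in dependent vs non-dependent rats was -0.00727 with array weights and -0.0477 to 0.0821 with 1 replicate left out, and Per2 in non-dependent vs naive rats -0.0778 to 0.0206. The causes were not tested.

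The replicate number as a block gave 26 region contrasts and 0 calls between groups. With this block Nr1d2 was -0.20 for non-dependent vs naive rats (adjusted p = 0.0654). Same-numbered arrays of different groups in the same region did not pair (0 of 24 group pairs had every correlation above 0.1). For same-numbered arrays of the same group in different regions, 8 of 84 pairs had every correlation above 0.1 (median r -0.004). Whether such arrays share a rat was not tested. Signal limits Per1 and Nr1d1, which lie near background outside the mPFC.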
